A study of Mus musculus with 6 samples.

Results

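Acetylcholine receptors were measured in RNA from the midbrain of adult, untreated control mice of the line Lhx5-TRAP DT154, which carry Lhx5-EGFP/Rpl10a. Translating ribosome affinity purification (TRAP) pulls down polysomes that carry an EGFP-tagged ribosomal protein, here Rpl10a in a line named for the transcription factor gene Lhx5. The 3 IP libraries hold RNA from the pulled-down polysomes. The 3 libraries titled input come from the same line and tissue, and a second label calls them unbound, so they may be the homogenate or what the beads left behind. Both groups carry the transgene, and the labels give neither the animals per library nor a line without the tag. The 10 receptor genes were taken by name out of 32531 gene entries. They are the muscarinic genes Chrm1 to Chrm5 and the nicotinic subunit genes Chrna3, Chrna4, Chrna7, Chrnb2 and Chrnb3.

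Acetylcholine acts through receptors of both kinds in the midbrain, where it is released by neurons of the pontine tegmentum. Muscarinic receptors are G protein-coupled: M1, M3 and M5 couple to Gq and raise phospholipase C activity, while M2 and M4 couple to Gi and lower cyclic AMP. Nicotinic receptors are cation channels built of several subunits, with alpha-4 and beta-2 forming the main high-affinity receptor of the brain and alpha-7 able to form a channel alone. Receptors with alpha-6 and beta-3 are known from dopamine neurons, and those with alpha-3 and beta-4 from the medial habenula.

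Of the 10 genes 3 were higher in IP (Chrm5, Chrna4 and Chrnb2), 3 were lower (Chrm1, Chrm4 and Chrnb3) and 4 did not pass. All 10 passed the filter on low counts. Over all 17197 genes tested, 26% were called higher and 27.9% lower, 53.9% in all, so the share of receptor genes called was near the background. Calls of higher genes made up 48.2% of all calls, and 38.1% under upper-quartile factors. The median log2 fold change was 0.55 for the 10 genes and -0.01 for all tested genes. Calls are those of edgeR's quasi-likelihood test at a Benjamini-Hochberg adjusted p under 0.05. Fewer cells of a type and less RNA per cell cannot be told apart in such libraries, and since no label states that the libraries of a group come from different mice, the p-values reflect a spread that may be technical. Chrm5 and Chrnb3 were called under all 15 other ways of processing the counts, which included leaving out each library.

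The libraries held 38058239 to 45841499 gene counts. Lhx5 itself had 46.8 to 56.0 CPM (TMM-scaled counts per 1e+06) in IP and 2.20 to 3.92 in input. Of 8 general neuronal markers 6 rose in IP, while Syt1 (-0.17) and Elavl3 (0.03) did not pass. Their summed level, 75.7 to 83.6% of it the synaptic gene Snap25, was 18657 to 23653 CPM in IP against 8495 to 12181 in input, and 8 oligodendrocyte markers summed to 322 to 479 CPM in IP against 4129 to 4897. Dopamine neuron markers, a partial check of the labelled tissue, were present in input, with 13.7 to 33.8 CPM of the tyrosine hydroxylase gene Th. Markers of other regions were present there too, those of cortex and hippocampus summing to 897 to 1276 CPM. The choroid plexus gene Ttr had 338, 7.24 and 1266 CPM in input replicates 1, 2 and 3. Some libraries stood apart by markers of other regions. IP replicate 2 had 77.9 CPM of the Purkinje cell gene Pcp2 against 0.12 and 0.17 in the other IP libraries, and input replicate 3 had 73.3 CPM of the striatal dopamine receptor gene Drd1 against 11.2 and 3.37 in the other input libraries.

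**Figure D1:**
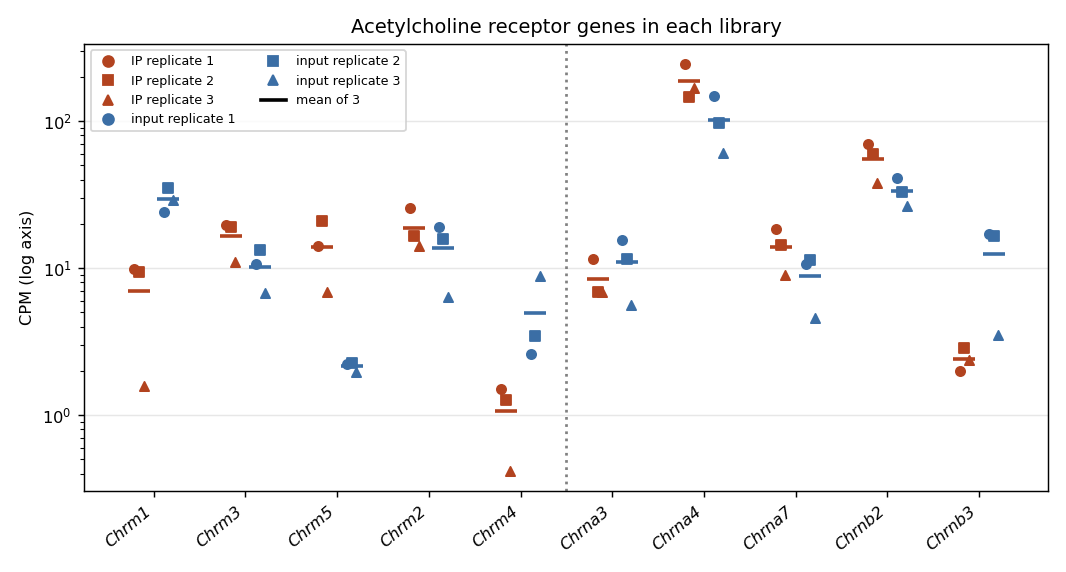
Level of each receptor gene in each library, in CPM on a log axis, with IP libraries in red, input libraries in blue, one marker shape per replicate number and a bar at each mean of 3. Chrm5 is the only gene with every IP library above every input library, and Chrm1, Chrm4 and Chrnb3 have every IP library below every input library.

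Among the Gq-coupled muscarinic genes Chrm5 and Chrm1 moved in opposite directions. Chrm5, which encodes the M5 receptor known from dopamine neurons of the midbrain, had 14.03, 20.8 and 6.93 CPM in IP replicates 1, 2 and 3. In input replicates 1, 2 and 3 it had 2.21, 2.27 and 1.95 CPM. Every IP library lay above every input library, and IP replicate 3 was the lowest of its group. Means were 13.9 ± 6.93 CPM for IP and 2.14 ± 0.17 for input (SD, n = 3 per group). Chrm5 rose 6.48-fold, with a 95% interval of 3.57 to 11.8 (log2 fold change 2.70, SE 0.38; edgeR adjusted p 0.000597). It was higher in IP than 99.7% of tested genes by fold change. Leaving out each library in turn gave log2 fold changes of 2.26 to 3.03.

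Most dopamine neuron markers were lower in IP, where Chrm5 was higher. Th had 5.20 to 7.53 CPM in IP against 13.7 to 33.8 in input, and the dopamine transporter gene Slc6a3 had 2.87 to 6.67 against 4.99 to 62.4. The 10 dopamine neuron markers together summed to 137 to 186 CPM in IP and 234 to 538 in input, and of the 9 tested 6 fell, 0 rose and 3 did not pass. Among these 3, Ret and En1 had log2 fold changes above 0 (0.82 and 0.38), and Drd2 had -0.46. Chrm5 lies on chromosome 2 from 112479171 to 112480769 on the minus strand (GENCODE M21, GRCm38), where the model is a single coding exon of 1599 bases. RefSeq's longer span of Chrm5 overlaps that of Aven, an apoptosis regulator gene, and the authors' gene model is not given in the sources used here. Aven stood at 0.22 on the log2 scale (SE 0.26, edgeR adjusted p 0.504), with 158 to 280 counts per library, against 79 to 851 for Chrm5.

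Chrm1, the M1 receptor gene that is abundant in cortex and hippocampus, had 9.82, 9.45 and 1.59 CPM in IP replicates 1, 2 and 3 and 23.9, 34.9 and 29.0 in input replicates 1, 2 and 3. The groups did not overlap. The log2 fold change was -2.08 (SE 0.54), or 4.22-fold lower, with an adjusted p of 0.0114 by edgeR. Without the low-count filter the adjusted p was 0.0574, and it ranged from 0.000685 to 0.0574 over the alternatives. Chrm1 was lowest of the IP libraries in replicate 3, as were 7 of 10 markers of cortex and hippocampus. The vesicular glutamate transporter gene Slc17a7 had 11.9, 11.8 and 0.58 CPM in IP replicates 1, 2 and 3, and the cortical factor gene Tbr1 had 6.57, 5.20 and 0.86. Other markers of the list went otherwise: the factor gene Neurod2 had 6.81, 20.8 and 8.56 CPM in the same libraries, and Lamp5 was highest in IP replicate 3 at 44.8. In input replicates 1, 2 and 3 Slc17a7 had 87.0, 122 and 46.5 CPM and Tbr1 had 11.1, 20.9 and 14.6. The 10 markers of cortex and hippocampus summed to 290 to 456 CPM in IP and 897 to 1276 in input, 7 fell, 1 rose and 2 did not pass, and none was at 0 in all libraries. Their part in the fall of Chrm1 was not tested. Exons of Chrm1 share 329 bases, or 5.07% of its exon bases, with the noncoding RNA gene Gm22820 on the other strand. Whether reads of that stretch entered the count of Chrm1 was not tested.

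Chrm3, the gene of the remaining Gq-coupled receptor, had 19.5, 19.1 and 11.1 CPM in IP replicates 1, 2 and 3 and 10.7, 13.3 and 6.79 in input replicates 1, 2 and 3. IP replicate 3 lay below input replicate 2, so the groups overlapped, while IP was above input in 3 of 3 same-numbered pairs. The log2 fold change was 0.69 (SE 0.29, 95% interval 0.03 to 1.36) and did not pass (edgeR adjusted p 0.0744). With the replicate number as a block the log2 fold change was 0.70 (SE 0.15) and passed at an adjusted p of 0.00573. It also passed without IP replicate 3 (0.93) and without input replicate 2 (0.93).

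The Gi-coupled genes also differed from each other. Chrm4, the M4 receptor gene that is abundant in striatal projection neurons, had 1.51, 1.27 and 0.42 CPM in IP replicates 1, 2 and 3. In input replicates 1, 2 and 3 it had 2.60, 3.46 and 8.86 CPM, all above every IP library and highest in input replicate 3. Chrm4 was called lower by edgeR, with -2.22 on the log2 scale (SE 0.59, adjusted p 0.0126), or 4.66-fold. Without input replicate 3 the log2 fold change was -1.52 and the call was lost (adjusted p 0.0523). It was also lost without IP replicate 2 and input replicate 3 together (-1.69, adjusted p 0.0686) and with the replicate block (-2.08, adjusted p 0.0526).

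Striatal markers were highest in the same input library as Chrm4. Drd1 had 11.2, 3.37 and 73.3 CPM in input replicates 1, 2 and 3, and Ppp1r1b, a phosphatase regulator of striatal neurons, had 55.1, 21.7 and 316. The 10 striatal markers summed to 379 to 523 CPM in IP and to 437, 242 and 1598 CPM in input replicates 1, 2 and 3, with 5 lower, 1 higher and 4 not passed. None of them was at 0 in all libraries. In IP the lowest value of Chrm4 was in replicate 3, as was that of Drd1 at 0.65 CPM. Of the 10 striatal markers 5 were lowest of the IP libraries in replicate 3, while 3 were highest there, such as Pde10a at 67.4 CPM. The part of these markers in the value of Chrm4 was not tested.

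Chrm2, the M2 receptor gene, had 25.5, 16.4 and 14.2 CPM in IP replicates 1, 2 and 3 and 19.2, 15.8 and 6.32 in input replicates 1, 2 and 3. The groups overlapped, with input replicate 1 above 2 of the IP libraries. The log2 fold change was 0.44 (SE 0.38, adjusted p 0.355 by edgeR), and its 95% interval of -0.43 to 1.32 holds both a fall and a rise. An exon of Chrm2 shares 142 bases with the noncoding RNA gene 9330158H04Rik on the other strand, or 2.35% of its exon bases.

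**Figure D2:**
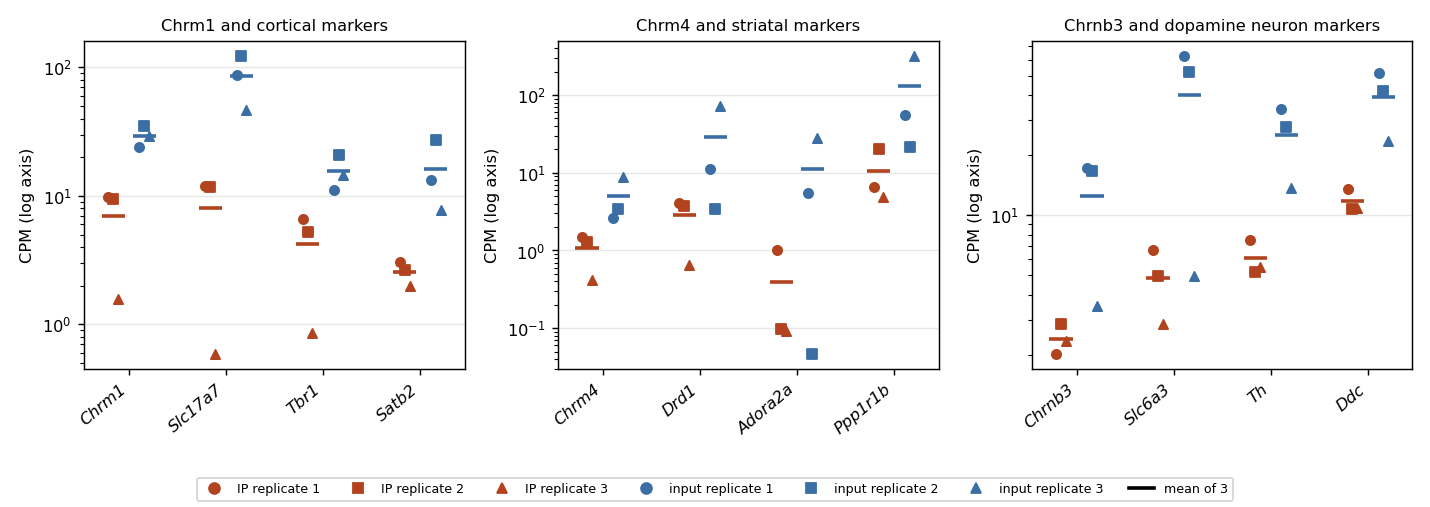
CPM on log axes in each library for Chrm1 beside 3 cortical markers, Chrm4 beside 3 striatal markers and Chrnb3 beside 3 dopamine neuron markers, with IP in red and input in blue. IP replicate 3 is lowest in Chrm1, Slc17a7 and Tbr1, input replicate 3 is highest in Chrm4 and the 3 striatal markers plotted, and input replicate 3 is lowest of its group in Chrnb3 and the 3 dopamine neuron markers plotted.

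Chrna4 and Chrnb2, the genes of the alpha-4 and beta-2 subunits, were both higher in IP by less than 2-fold. Chrna4 had 243, 147 and 168 CPM in IP replicates 1, 2 and 3 and 149, 97.2 and 60.7 in input replicates 1, 2 and 3. Its groups overlapped only in that IP replicate 2 lay just below input replicate 1. The log2 fold change of Chrna4 was 0.86 (SE 0.31, 95% interval 0.15 to 1.57) and its adjusted p was 0.0439 by edgeR. Chrnb2 had 69.7, 59.5 and 37.6 CPM in IP replicates 1, 2 and 3 and 41.3, 32.9 and 26.4 in input replicates 1, 2 and 3. IP replicate 3 was below input replicate 1, and the other IP libraries were above every input library. Its log2 fold change was 0.73 (SE 0.24, 95% interval 0.18 to 1.28) with an adjusted p of 0.0317 by edgeR. Both genes were higher in IP in 3 of 3 same-numbered pairs.

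These calls rested on the set of libraries and the scaling. Chrna4 was no longer called without any one of IP replicates 1, 2 and 3 or input replicates 2 and 3, and Chrnb2 without any one of IP replicates 1 and 2 or input replicates 2 and 3. Over the 6 fits that each left out a library, Chrna4 stood at 0.57 to 1.24 and Chrnb2 at 0.55 to 0.96. Upper-quartile scaling gave 0.71 and 0.58, neither of them called, and moved the median of all tested genes to -0.17. With the replicate block they stood at 0.92 (adjusted p 0.0047) and 0.71 (adjusted p 0.00178). Chrnb2 lies on chromosome 3 from 89746195 to 89764632 and shares 1365 exon bases, 16.3% of its own, with Adar on the other strand. Adar, an RNA editing enzyme gene, rose by 1.06 (SE 0.16), and whether reads of that stretch entered the count of Chrnb2 was not tested.

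The counts of Chrna4 per count of Chrnb2 do not depend on scaling. The ratio was 3.49, 2.47 and 4.45 in IP replicates 1, 2 and 3 and 3.61, 2.96 and 2.30 in input replicates 1, 2 and 3. The groups overlapped, with means of 3.47 ± 0.99 and 2.96 ± 0.66 (SD, n = 3 each; exact two-sided permutation p = 0.5, adjusted p = 0.6 over 6 ratios). With 3 libraries against 3, the smallest p such a test can give is 0.1.

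Chrna7, whose alpha-7 subunit forms channels with high calcium permeability, had 18.5, 14.4 and 8.91 CPM in IP replicates 1, 2 and 3. Input replicates 1, 2 and 3 had 10.7, 11.3 and 4.59 CPM, overlapping with the lowest IP library. Its log2 fold change of 0.65 (SE 0.37, 95% interval -0.19 to 1.49) did not pass at an adjusted p of 0.166 by edgeR. The replicate block gave 0.69 (SE 0.17), which passed at an adjusted p of 0.0125, and IP was higher in 3 of 3 pairs.

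Chrnb3, the gene of the accessory beta-3 subunit, had the lowest fold change of the 10 genes. It had 2.01, 2.86 and 2.36 CPM in IP replicates 1, 2 and 3 and 17.2, 16.6 and 3.53 in input replicates 1, 2 and 3. The groups did not overlap, though input replicate 3 came close to the IP libraries. The log2 fold change was -2.37 (SE 0.53), or 5.17-fold lower, with an adjusted p of 0.00543 by edgeR. Without input replicate 3 it was -2.83. Of the 10 dopamine neuron markers 9 were also lowest of the input libraries in replicate 3, the exception being Drd2 at 40.7 CPM, its highest. Slc6a3 had 62.4, 52.3 and 4.99 CPM in input replicates 1, 2 and 3, and Th had 33.8, 27.8 and 13.7. Their part in the value of Chrnb3 was not tested. Chrnb3 starts at position 27368711 of chromosome 8 and ends 3481 bases before Chrna6, the gene of the alpha-6 subunit it joins.

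Chrna3, the alpha-3 subunit gene, had 11.5, 6.86 and 6.86 CPM in IP replicates 1, 2 and 3 and 15.6, 11.6 and 5.63 in input replicates 1, 2 and 3. The groups overlapped, and the log2 fold change was -0.38 (SE 0.37, 95% interval -1.21 to 0.46, adjusted p 0.41 by edgeR). It lies between Chrna5 and Chrnb4 on chromosome 9, 2331 bases from the first and 1591 from the second. Chrnb4, whose beta-4 subunit joins alpha-3, fell. The counts of Chrna3 per count of Chrnb4 were 4.34, 5.02 and 6.84 in IP replicates 1, 2 and 3 and 1.54, 1.996 and 1.11 in input replicates 1, 2 and 3, so every IP library was above every input library (exact two-sided permutation p = 0.1, the smallest possible, and adjusted p = 0.15 over 6 ratios).

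**Figure D3:**
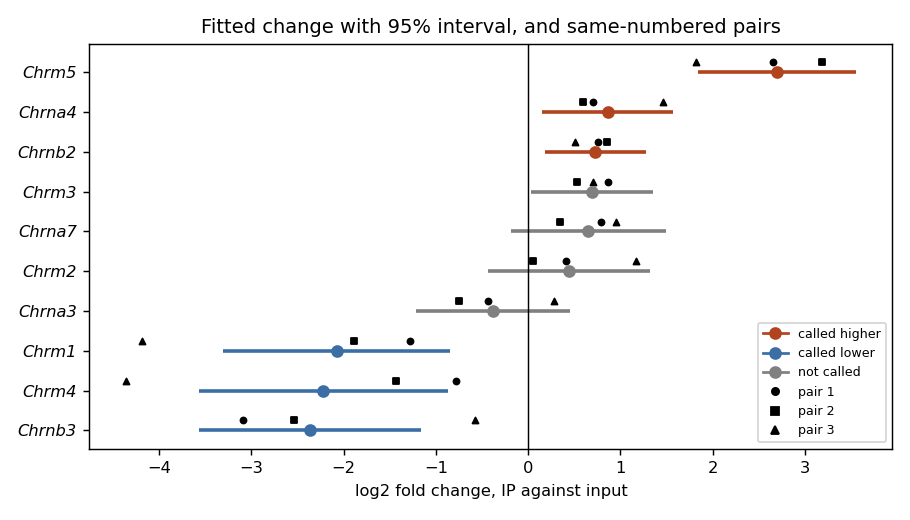
Fitted log2 fold change of each receptor gene, IP against input, with its 95% interval as a line, coloured by call, and the log2 ratio of each same-numbered pair as small black symbols. Chrm5 lies at 2.70, Chrm1, Chrm4 and Chrnb3 lie between -2.37 and -2.08, and pair 3 departs from pairs 1 and 2 for Chrm1, Chrm4 and Chrnb3.

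Upstream sequences are shown for 3 members, one called higher, one called lower and one not called, whose windows lie before the gene and hold no annotated exon. The window of Chrm5 is not shown because it sits beside the coding exon, inside the longer RefSeq span of the gene. Windows of RefSeq starts (GRCm38.p6) were matched for 8 of the 10 genes, all but Chrm1 and Chrnb3, and the 250 bases before each start were searched on both strands. Capitals mark GC boxes, GGGCGG or its reverse complement, the site that Sp-family factors are known to bind. The sequences run 5′ to 3′ on the gene's strand, from chr3:89764633-89764882 (minus) for Chrnb2, chr2:91921939-91922188 (plus) for Chrm4 and chr9:55026563-55026812 (minus) for Chrna3.
Chrnb2: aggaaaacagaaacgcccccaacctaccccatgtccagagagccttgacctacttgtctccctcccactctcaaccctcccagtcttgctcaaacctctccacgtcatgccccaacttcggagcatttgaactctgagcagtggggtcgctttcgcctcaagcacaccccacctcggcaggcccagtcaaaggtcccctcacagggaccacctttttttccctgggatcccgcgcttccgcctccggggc
Chrm4: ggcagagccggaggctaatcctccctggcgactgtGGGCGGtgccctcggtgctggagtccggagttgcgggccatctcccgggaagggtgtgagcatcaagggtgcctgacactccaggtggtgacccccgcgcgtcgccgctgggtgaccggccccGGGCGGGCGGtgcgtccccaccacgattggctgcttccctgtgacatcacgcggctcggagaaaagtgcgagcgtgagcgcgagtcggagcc
Chrna3: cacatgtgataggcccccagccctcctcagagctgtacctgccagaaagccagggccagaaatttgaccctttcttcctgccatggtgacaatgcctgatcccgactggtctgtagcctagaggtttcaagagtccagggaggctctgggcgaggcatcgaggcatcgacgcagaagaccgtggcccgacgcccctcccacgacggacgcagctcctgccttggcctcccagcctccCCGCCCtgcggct

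Chrm4 held 3 GC boxes, 2 of them overlapping, Chrna3 held 1 and Chrnb2 none, and of all 32851 such windows 32.7% held at least 1. The TATA box letters TATAAA, found in 12.4% of all windows, and the cyclic AMP response element TGACGTCA, found in 1.55%, were in none of the 8 windows. TAATTA, the core letters that LIM homeodomain factors such as Lhx5 are known to bind, was in the window of Chrm5 alone and in 4.84% of all windows. That window is the one beside the coding exon, inside the longer RefSeq span of Chrm5. The base content ran from 37.6% G and C in the window of Chrm5 to 74.4% in that of Chrna4. Chrnb2 (59.6%), Chrm4 (70%) and Chrna3 (63.2%) lay between. Such matches describe letters and not binding.

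Levels of different genes are set side by side only per length, as CPM per kb of annotated exons. In IP the order was Chrna4 at 37.0 ± 10.1, Chrm5 at 8.70 ± 4.33, Chrnb2 at 6.63 ± 1.95, Chrna7 at 3.09 ± 1.07, Chrm2 at 3.09 ± 0.99 and Chrm3 at 2.65 ± 0.76 (SD, n = 3). Below them came Chrna3 at 1.60, Chrm1 at 1.07, Chrm4 at 0.74 and Chrnb3 at 0.38. In input Chrna4 was again first at 20.4 ± 8.85, followed by Chrm1 at 4.52 ± 0.85, Chrnb2 at 4.001 ± 0.89 and Chrm4 at 3.45 ± 2.36 (SD, n = 3). The other 6 genes lay between 1.34 for Chrm5 and 2.27 for Chrm2. Chrna4 stood apart from the next gene by more than the SD of either in both groups, and in IP so did Chrnb2 from Chrna7. Chrm5 and Chrnb2 in IP, and the neighbours among Chrna7, Chrm2 and Chrm3 and from Chrna3 down to Chrnb3, differed by less than the larger SD. In input all neighbours below Chrna4 did so. For Chrm4 and Chrm5 the annotation holds the coding length only (1440 and 1599 bases), so their levels per length are too high if the authors counted longer models.

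**Figure D4:**
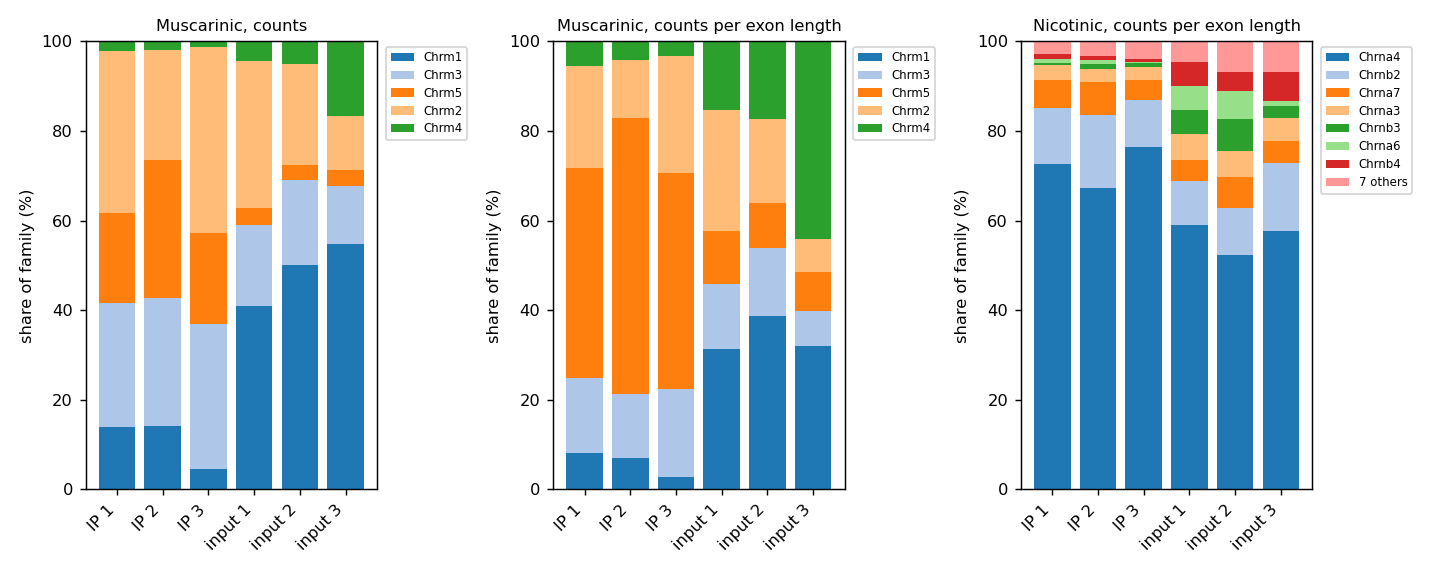
Stacked shares of each receptor family in each library, in percent: muscarinic genes by counts, muscarinic genes by counts per exon length, and nicotinic genes by counts per exon length. Chrm5 takes 47.0 to 61.6% of the length-scaled muscarinic sum in IP and 8.72 to 11.8% in input, and Chrna4 takes 67.3 to 76.5% of the nicotinic sum in IP and 52.3 to 59.0% in input.

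Within the muscarinic family the shares of Chrm1 and Chrm5 differed in opposite directions, and such shares do not depend on scaling between libraries. The 5 genes summed to 70.4, 67.0 and 34.2 CPM in IP replicates 1, 2 and 3 and to 58.6, 69.7 and 52.9 in input replicates 1, 2 and 3, which overlap (exact two-sided permutation p = 0.9). Chrm1 took 48.6% ± 7.12 of muscarinic counts in input and 10.9% ± 5.42 in IP, and Chrm5 took 3.57% ± 0.275 in input and 23.7% ± 6.31 in IP (SD, n = 3). Scaled by length, Chrm1 took 34.0% ± 4.01 in input and 5.91% ± 2.83 in IP, and Chrm5 took 10.2% ± 1.52 and 52.3% ± 8.10. The length-scaled share of Chrm2 was 17.7% in input and 20.5% in IP and that of Chrm3 12.5% and 17.0%, with groups that overlapped (exact two-sided permutation p = 0.7 and 0.3). The length-scaled share of Chrm4 was 25.5% ± 16.04 in input, with 44.0% in input replicate 3, against 4.34% ± 1.19 in IP (SD, n = 3). By counts, which do not use its doubtful length, it was 8.71% ± 6.96 and 1.75% ± 0.47. Without input replicate 3 the length-scaled difference went from -21.2 to -12.0 percentage points. The Gq-coupled genes together took 75.1% in IP and 56.8% in input when scaled by length, but 64.1% and 68.9% by counts, so that direction depends on the length used.

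Within the nicotinic family Chrna4 took 72.2% ± 4.66 of the length-scaled IP sum and 56.3% ± 3.56 of that in input (SD, n = 3), with every IP library above every input library. Chrnb2 took 13.0% ± 3.04 and 11.8% ± 2.84, which overlap. Chrnb3, Chrna6 and Chrnb4 took 0.784%, 0.772% and 0.844% in IP and 5.02%, 4.30% and 5.37% in input. Chrna3 took 3.09% ± 0.168 in IP and 5.64% ± 0.463 in input. For Chrm1, Chrm4, Chrm5, Chrna3, Chrna4 and Chrnb3 the exact two-sided permutation p of the share was 0.1, the smallest possible, and the adjusted p was 0.2 over 20 shares.

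The other nicotinic subunit genes were scarce. Of the 11, 9 had a count and 6 were tested, of which Chrnb4 was lower and 5 did not pass, 16.7% called against 53.9% of all genes. Chrnb4 had 2.65, 1.37 and 1.003 CPM in IP replicates 1, 2 and 3 and 10.1, 5.80 and 5.06 in input replicates 1, 2 and 3, which is -2.06 on the log2 scale (SE 0.42, edgeR adjusted p 0.0037). With IP replicate 2 or input replicate 3 left out, 2 of these genes were called lower. Chrna6 had 2.01, 1.27 and 0.35 CPM in IP and 7.69, 6.81 and 0.79 in input, and its log2 fold change of -2.08 (SE 0.82) did not pass (adjusted p 0.061 by edgeR). The muscle subunit genes Chrna1 and Chrnb1 had log2 fold changes of 0.05 and -0.69, Chrna5 had -0.38 and Chrna2 had 0.76, and none of the 4 passed. Chrna10, Chrne and Chrng had at most 10 counts in any library. Chrna9 and Chrnd had 0 counts in all 6, which allows up to 0.0688 to 0.0741 CPM per library by counting error alone.

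The genes of the pathway lists were called about as often as all genes, 53.2% of 62 against 53.9%, and no list is set apart from that background here. Of 10 tested genes that help nicotinic receptors fold or tune their gating, 6 rose, 1 fell and 3 did not pass, where 26% of all genes rose and 27.9% fell. Their median log2 fold change was 0.69, against -0.01 for all tested genes and 0.96 for 8 general neuronal markers, of which 6 rose. The part of a higher neuronal share in these values was not tested. Lynx1, a membrane-bound Ly6 protein that restrains nicotinic receptors, rose by 1.21 (SE 0.19), from 403 to 655 CPM in input to 1019 to 1368 in IP. Ly6e rose by 0.83 (SE 0.18) and Rer1, a sorting receptor gene that also acts in subunit assembly, by 0.54 (SE 0.18). Lypd6, also of the Ly6 family, fell by 0.96 (SE 0.22). Tmem35a, the NACHO chaperone of alpha-7, rose by 1.011 (SE 0.22), and Ric3, also a chaperone of alpha-7, stood at 0.30 (SE 0.19) and did not pass, both named after their values were seen. Adjusted p was 0.0332 or less for those that passed.

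Of 7 tested genes of acetylcholine handling 3 fell, 1 rose and 3 did not pass, at a median of -1.44, and the share called, 57.1%, was near the 53.9% of all genes. The choline transporter gene Slc5a7 fell by 3.39 (SE 0.35), the butyrylcholinesterase gene Bche by 1.97 (SE 0.28) and the vesicular acetylcholine transporter gene Slc18a3 by 1.86 (SE 0.60). Ache, the acetylcholinesterase gene, rose by 1.63 (SE 0.26) and had 65.4 to 102 CPM in IP against 17.0 to 32.2 in input. Chat, the synthesis enzyme of cholinergic neurons, had 0.49 to 1.42 CPM in IP and 0.76 to 4.15 in input and did not pass (adjusted p 0.0861 by edgeR). Of the 5 cholinergic neuron markers 3 are the handling genes Chat, Slc18a3 and Slc5a7 just given, so their sum partly restates those values. The 5 markers summed to 3.20 to 5.88 CPM in IP and 13.9 to 42.7 in input, and none was at 0 in all libraries.

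Of 12 genes of the Gq pathway 3 fell, 1 rose and 8 did not pass, at a median of -0.36, so that 33.3% were called against 53.9% of all genes. The protein kinase C genes Prkcb and Prkca fell by 1.003 (SE 0.22) and 1.53 (SE 0.17) and the phospholipase C gene Plcb1 by 1.02 (SE 0.19). Plcb4 rose by 0.49 (SE 0.13), a call lost without input replicate 3 and with upper-quartile scaling or library totals. Without IP replicate 2, high in Purkinje cell genes, 6 genes of this list fell. Of 12 genes of the Gi pathway 4 rose, 4 fell and 4 did not pass, at a median of -0.11, so that 66.7% were called against 53.9% of all genes. In this list 2 rose without input replicate 1, without input replicate 2 or with upper-quartile scaling. Gnao1, the G alpha o gene, rose by 0.48 (SE 0.13) and the RGS genes Rgs8 and Rgs7 by 0.71 (SE 0.23) and 0.80 (SE 0.12). Rgs8 is also a Purkinje cell gene and had 583 CPM in IP replicate 2. Adcy1, an adenylyl cyclase gene, fell by 1.18 (SE 0.15).

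Of 7 receptor kinase and arrestin genes 4 rose, 1 fell and 2 did not pass, at a median of 0.47. That is 71.4% called, against 53.9% of all genes, of which 26% rose and 27.9% fell. The arrestin genes Arrb1 and Arrb2 rose by 0.47 (SE 0.13) and 1.001 (SE 0.17) and the kinase gene Grk2 by 0.97 (SE 0.15), while Grk3 fell by 0.45 (SE 0.10). Of 8 genes of potassium channels that muscarinic receptors close or open, 2 rose, 2 fell and 4 did not pass, at a median of -0.26. The share called was 50%, near that of all genes. Kcnq3, a subunit gene of the M current, fell by 0.63 (SE 0.13). Kcnj9, of the G protein-gated channels, rose by 0.80 (SE 0.24), and Kcnj6, named after its value was seen, fell by 0.51 (SE 0.14). These calls rested on single libraries: 0 channel genes were higher by edgeR when any of IP 1, IP 2 and input 3 was left out, 1 without input 1 and 3 without IP 3. Channel genes called lower numbered 1 without input 1 or input 2 and 3 without IP 1 or without IP 2. They also numbered 3 with upper-quartile scaling, library totals, DESeq2 or the replicate block. Without input 2, Grk3 was joined by a second kinase or arrestin gene among those called lower, 2 in all.

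**Figure D5:**
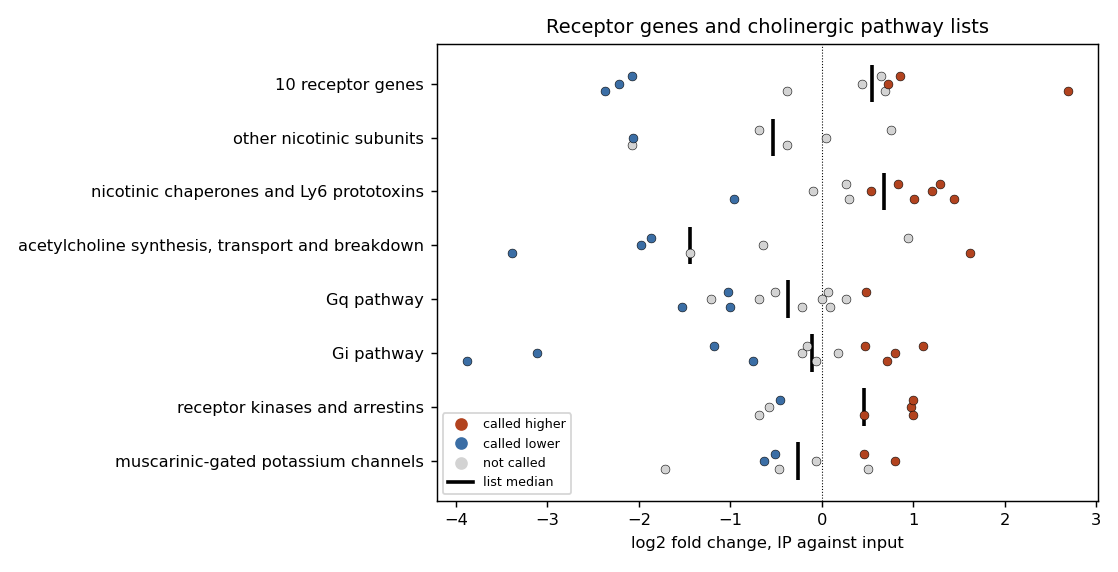
Log2 fold change, IP against input, of each tested gene of the 10 receptor genes and of the 7 pathway lists, one point per gene coloured by call, with a bar at each list's median. The list of chaperones and Ly6 proteins has its median at 0.69 and that of acetylcholine handling at -1.44.

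Across the 6 libraries, the genes most like each receptor gene in log2 CPM were found among 9750 others, with no test. Chrm1 was closest to Tbr1 (Pearson's r = 0.994) and P4ha1 (0.994). Chrm5 was closest to Reep6 (0.995) and B3galt6 (0.992), and Chrm3 to Tenm2 (0.998) and Foxred2 (0.995). Chrm2 was closest to Sec11c (0.997) and Cd320 (0.994), and Chrm4 to AK135172 (0.995) and Nap1l1 (0.994). Chrna4 was closest to Lrfn5 (0.996) and Ublcp1 (0.994), Chrnb2 to Nipal2 (0.998) and Ubxn8 (0.996), and Chrna7 to Scn8a (0.996) and Tmbim6 (0.993). Chrna3 and Chrnb3 had lower values, with Cyp2j6 (0.990) and Hapln1 (0.980) for the first and Fbxo7 (0.982) and Zfp438 (0.982) for the second. All points share the difference between the groups and the library totals, and with so many candidates high values arise readily.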

How the data were processed

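Each of the 6 deposited files lists read counts against gene symbols for 1 library. The submitters' processing notes name STAR 2.0.0e, HTSeq and mm10. Which annotation was used, and whether strand was read, is not given in the sources used here. Lines naming no gene (6 per file) were left out of totals and tests. Reads set aside as ambiguous were 1.63% ± 0.046 of the total in IP and 9.35% ± 1.48 in input, and those that did not map uniquely 44.2% ± 0.402 and 32.5% ± 0.596 (SD, n = 3).

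Titles gave the groups and replicate numbers. After filterByExpr by group (minimum count 10, minimum total 15) and TMM scaling, all 17197 genes left were tested with the quasi-likelihood test of edgeR 4.0.16 in R 4.3.3, with group as its only term, and p-values were adjusted by Benjamini-Hochberg with a threshold of 0.05. The SE is the log2 fold change divided by the root of F. The script was tested on simulated data. Other settings tried were RLE, upper-quartile and total-count scaling, 2 other filters, DESeq2 1.42.0, limma-voom (limma 3.58.1), the replicate number as a block, and fits without 1 or 2 libraries. The floor of 3 counts covers counting error only.

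Libraries were paired by the replicate number in their titles. The lane in the labels is the same for an IP library and the input library of its number, so number and lane cannot be told apart. Between the libraries of a pair, correlations of the deviations from the group means were 0.155, 0.074 and 0.051 for replicates 1, 2 and 3. These values were low, though each IP library correlated best with the input library of its own number. Replicates differed beyond sampling noise, with a chi-square per degree of freedom of 25.6 to 79.3.

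Lengths and positions are from GENCODE M21 (GRCm38). Tmem35, Adrbk1 and Adrbk2 in the files are given as Tmem35a, Grk2 and Grk3. The members and lists were chosen with earlier results of these data known. Named are all 10 members, every other nicotinic subunit gene with a count, and from each list at most 3 genes called in its commoner direction and 1 in the other, by abundance. One gene that this rule names is not reported here. Genes most like a member had the highest correlation among genes whose mean log2 CPM was 3 or more. Marker lists covered striatum, cortex and hippocampus, dopamine neurons, cholinergic neurons, medial habenula, Purkinje cells, oligodendrocytes and their precursors, astrocytes, microglia, endothelium, choroid plexus and neurons.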

Additional observations from a re-analysis of the deposited data

How the results depend on the processing

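Over 15 alternatives each, the 10 receptor genes kept the direction of their log2 fold change. Of 150 such values, 124 kept their side of the threshold, 22 no longer passed and 4 newly passed. Chrna4 was not called with RLE scaling (0.83), upper-quartile scaling (0.71), library totals (0.73), no low-count filter (0.87), a minimum of 1 CPM (0.79) or without the 2 libraries IP replicate 2 and input replicate 3 (0.69). Chrnb2 was not called with upper-quartile scaling (0.58), library totals (0.60) or without those 2 libraries (0.49). Chrm1 was not called without a filter (-2.08), nor Chrm4 with the replicate block (-2.08) or without those 2 libraries (-1.69). The replicate block called Chrm3 (0.70) and Chrna7 (0.69), so that 5 receptor genes were higher, against 1 with upper-quartile scaling, library totals or without those 2 libraries. Apart from Chrm3, Chrna7 and Chrm4, the replicate block changed no receptor call. Without IP replicate 2 and input replicate 3 the value of Chrm3 was 0.31. Leaving out 1 library gave log2 fold changes of 0.45 to 0.93 for Chrm3, -2.54 to -1.52 for Chrm4, 0.57 to 1.24 for Chrna4 and 0.55 to 0.96 for Chrnb2, and 1 to 3 receptor genes called higher. All-gene counts stayed within 1.5 times of 4467 and 4794. Upper-quartile scaling moved the pathway genes from 18 higher and 15 lower to 12 and 21. Without length scaling the shares, IP minus input in percentage points, went from -28.1 to -37.7 for Chrm1, from 2.82 to 11.7 for Chrm2, from 4.46 to 12.8 for Chrm3, from -21.2 to -6.96 for Chrm4 and from 42.0 to 20.2 for Chrm5. Leaving out 1 library gave -0.11 to 1.29 for Chrna7, -0.43 to 2.84 for Chrnb2 and -2.30 to 7.44 for Chrm2, and Chrna7 stood at -0.40 without IP replicate 2 and input replicate 3. The cause of these changes was not tested. At 0.42 to 8.86 CPM, Chrm4 rests on 18 to 359 counts per library.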

Other observations

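Markers of glia, vessels and choroid plexus were mostly lower in IP. Of 6 oligodendrocyte precursor markers 5 fell and 1 did not pass, of 8 astrocyte markers 7 fell and 1 did not pass, and of 7 microglial markers 6 fell and 1 did not pass. All 8 oligodendrocyte markers fell, and of 4 tested cholinergic neuron markers 3 fell and 1 did not pass. The 6 endothelial markers fell, and of 4 tested choroid plexus markers 2 fell and 2 did not pass. Of 7 Purkinje cell markers 1 rose and 6 did not pass. Of 7 markers of the medial habenula 3 fell, Chrnb4 among them, 1 rose and 3 did not pass. Pou4f1, a POU homeodomain factor gene of that list, rose by 2.02 (SE 0.34), while Gpr151, an orphan receptor gene of habenular neurons, fell by 2.75 (SE 0.76). Tac2, the neurokinin B gene, had 85.7, 119 and 5.74 CPM in IP replicates 1, 2 and 3 and 11.9, 6.30 and 17.4 in input replicates 1, 2 and 3, and did not pass (edgeR adjusted p 0.0501).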
